A study of Mus musculus with 2 samples.

Results

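The genes described here are the ADAM, ADAMTS, ADAMTS-like and MMP genes of the mouse, which encode the main metalloproteases of the extracellular matrix and their relatives. They were taken by symbol (Adam, Adamts, Adamtsl or Mmp, then a number and an optional letter), which gave 81 of 21887 protein-coding genes of RefSeq. Of these 34 were Adam genes, 19 Adamts genes, 5 Adamtsl genes and 23 Mmp genes. Adamdec1 has no number and was left out. An accessible site was counted at a gene when its centre lay in the mm10 span of the gene or within 50 kb of it. Each site was given to the nearest member.

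The sites came from ATAC-seq, in which a transposase cuts open chromatin, of 2 populations of C57BL/6 adipose progenitors with 1 library each. The first population was CD137+ and the other PDGFRα+ (also labelled CD140+). Both were isolated by MACS, a magnetic sort, from SAT or VAT, differentiated with an adipogenic cocktail and then treated with the glucocorticoid dexamethasone at 1 µM. Every sample therefore carried the drug, and the labels give neither the depot of each library nor the age of the mice. Part of the extraction text concerns embryonic cells and fits no adipose material.

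Each library was represented by a list of peaks that the authors called unique, 14483 for CD137 and 8002 for PDGFRα, so that 64.4% of all 22485 listed peaks were CD137 peaks. The lists carry no height or read number. Depth is therefore unknown. What made a peak unique is not given, so the absence of a listed peak does not show that a gene was closed. With 1 library per population no test was possible. Shares below carry exact 95% binomial intervals, which cover counting error only. More cells of a type and more open chromatin per cell cannot be told apart in such libraries. Unique peaks lay within 50 kb of 10 of 11 marker genes of adipose progenitors and 6 of 6 of adipocytes. They also lay within 50 kb of 4 of 5 endothelial, 5 of 5 immune and 4 of 4 mesothelial marker genes. Of all 21887 protein-coding genes 65.1% had such a peak, so the lists alone do not identify the cells. The summed peaks were 25 CD137 and 7 PDGFRα at the progenitor markers, 10 and 3 at the adipocyte markers, 4 and 6 at the endothelial, 4 and 5 at the immune and 2 and 7 at the mesothelial ones. Many of these peaks lay at single genes, with 6 and 2 at Zfp423, 7 and 1 at Ebf2 and 0 and 5 at Wt1. Pdgfra itself had 1 and 0. The part of these cell types in the results below was not tested.

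MMPs are zinc-dependent endopeptidases that cut collagens, elastin and other matrix proteins. ADAMs are mostly membrane-anchored proteases that release the outer parts of receptors and growth factors, and several of them have lost catalytic activity. ADAMTS proteases are secreted, carry thrombospondin repeats and cut proteoglycans or trim procollagens, while the ADAMTS-like proteins share the repeats without a protease domain. In fat, growth of the tissue requires the collagen around adipocytes to be remodelled, a process in which the membrane-type protease of Mmp14 is a known player.

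Matrix protease genes carried 180 unique peaks, 107 from CD137 and 73 from PDGFRα. They made up 0.739% and 0.912% of the respective lists. The CD137 share was 59.4% (51.9 to 66.7%), against 64.5% of all other peaks, a difference of -5.01 points with a Newcombe 95% interval of -12.3 to 1.92 points that includes 0. Of the 81 genes 54 had a peak. Peaks of both lists occurred at 26 genes, of the CD137 list alone at 17 and of the PDGFRα list alone at 11. When every gene took all peaks of its own window, 59 members (72.8%) had a peak, beside 65.1% of all protein-coding genes. In that count 16 members (19.8%) had CD137 peaks only, 13 (16%) PDGFRα peaks only and 30 (37.0%) both, beside 24.7%, 15.6% and 24.8% of all genes. Counted in this way, where a peak may enter at several genes, the CD137 share was 58.7% at members and 59.4% at all protein-coding genes. The median was 1 peak per member and 1 per protein-coding gene.

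The share of genes with a peak followed gene length, in the members as in all genes. In spans under 20 kb, 19 of 37 members (51.4%) and 55.4% of all genes had a peak. From 20 to 100 kb the values were 23 of 26 (88.5%) and 72.0%, from 100 to 300 kb 14 of 15 (93.3%) and 89.2%, and over 300 kb 3 of 3 and 94.6%. Adamts genes were long, with a median span of 114 kb, whereas the medians were 17.6 kb for Adam, 29.6 kb for Adamtsl and 12.7 kb for Mmp genes.

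**Figure D1:**
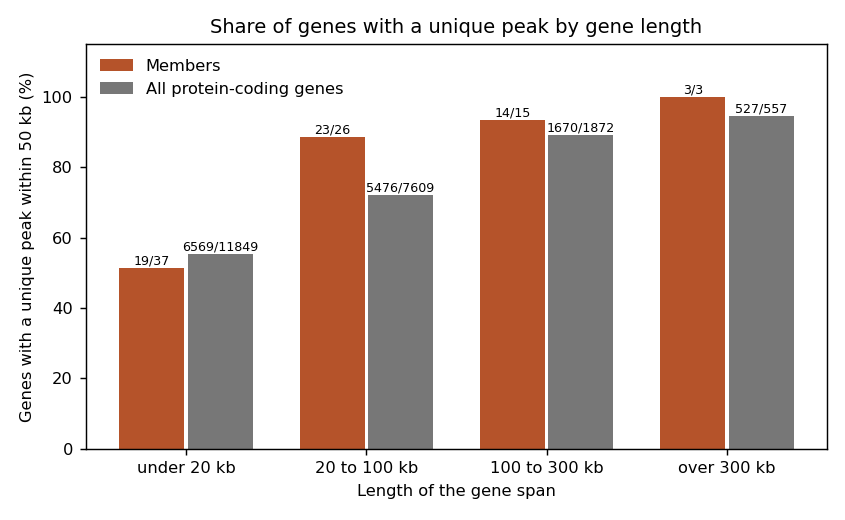
Share of genes with at least 1 unique peak of either list within 50 kb, by length of the gene span (kb), for the 81 members (orange) and all protein-coding genes (grey), with the numbers of genes above the bars. The share rose with length in both, from 51.4% and 55.4% under 20 kb to 100% and 94.6% over 300 kb.

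By family, 18 of 19 Adamts genes had a peak assigned to them, and so did 16 of 34 Adam, 4 of 5 Adamtsl and 16 of 23 Mmp genes. With every peak of each window, as in the share over all genes (65.1%), the numbers were 18 (94.7%), 17 (50%), 5 (100%) and 19 (82.6%). The Adamts value stands beside 89.2% of all genes of 100 to 300 kb, the class of the Adamts median, and the Adam and Mmp values beside 55.4% of all genes under 20 kb. Each of these families spans several length classes, so a single class is only a rough match. Adamts spans ran from 9.29 kb (Adamts1) to 313 kb (Adamts17), and 72.0% of all genes of 20 to 100 kb had a peak. The Adam value joins 2 unlike sets. Of 22 Adam genes known mainly from testis, sperm or egg, 5 had a peak assigned (22.7%, median span 8.35 kb). Of the other 12 Adam genes, 11 had a peak assigned (91.7%, median span 59.2 kb). The 5 members with peaks in their own window that all went to a nearer member were Adam5, Adamtsl2, Mmp1a, Mmp1b and Mmp20. The CD137 share of peaks was 66.2% of 77 peaks at Adamts genes (54.6 to 76.6%), 56.8% of 44 at Adam genes (41.0 to 71.7%), 57.6% of 33 at Adamtsl genes (39.2 to 74.5%) and 46.2% of 26 at Mmp genes (26.6 to 66.6%). All 4 intervals overlapped each other and held the 64.4% of the whole lists, so the families could not be told apart at these numbers. The Mmp value also turned with the window. Only 4 of the 26 Mmp peaks lay inside a span, and 3 of those were CD137 peaks (75%).

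**Figure D2:**
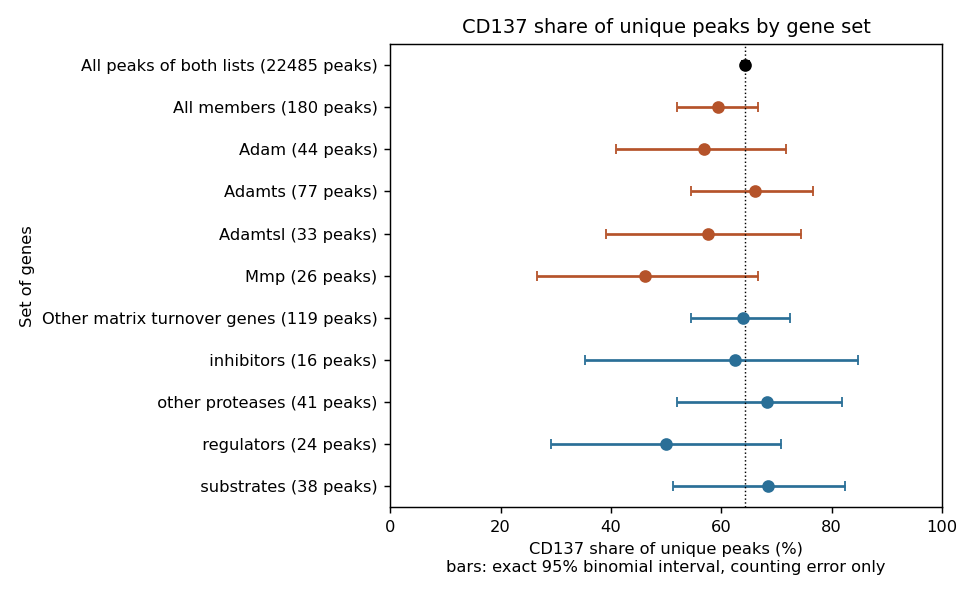
CD137 share of unique peaks (%) for all peaks of both lists (black, dotted line), for the matrix protease genes and their families (orange) and for other genes of matrix turnover (blue), with exact 95% binomial intervals as bars and the number of peaks in brackets. Every interval shown holds the 64.4% of the whole lists.

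Among the Adamts genes the procollagen N-propeptidase group had the highest CD137 share. These enzymes trim the amino-terminal propeptide from fibrillar procollagens. The group had 12 CD137 and 3 PDGFRα peaks (80%, 51.9 to 95.7%) at its 3 genes. Adamts2 (chromosome 11, 50602085 to 50807573) had 8 CD137 peaks and 1 PDGFRα peak. Of the CD137 peaks 6 lay in introns between 42.3 and 143 kb from the gene start, the widest at 50669046 to 50671843 (2797 bp). The PDGFRα peak lay 5.81 kb upstream at 50595858 to 50596694, and CD137 peaks flanked it on both sides. A further CD137 peak, 43.3 kb beyond the gene end, was nearer to Grm6. Adamts14 had 3 CD137 peaks and no PDGFRα peak, and the widest of these, 3700 bp at 61271395 to 61275095 on chromosome 10, covered the start of the gene. The other 2 were nearer to Tbata. Adamts3 had 1 CD137 and 2 PDGFRα peaks, all in introns, so the members of the group did not share a direction.

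The proteases of Adamts7 and Adamts12 cut cartilage oligomeric matrix protein (COMP). Adamts12 (chromosome 15, 11064773 to 11349232) had 7 CD137 and 2 PDGFRα peaks. The CD137 peaks lay in a row, 5 of them in introns between 69.2 and 146 kb from the gene start and 2 beyond the gene end. Both PDGFRα peaks lay outside that row, at 30.9 kb and 316 kb from the start. The last CD137 peak of the row, at 11370164 to 11371674, and the PDGFRα peak at 316 kb were nearer to Tars. Adamts7 had 4 CD137 and 2 PDGFRα peaks, none inside the gene. All but 1 of them, a CD137 peak 16.9 kb away, were nearer to Morf4l1 or Tbc1d2b. The peak closest to Adamts7 was a PDGFRα peak 1.39 kb beyond the span at 90200517 to 90202468 on chromosome 9, which lay at Tbc1d2b by position.

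The aggrecanase group, whose proteases cut proteoglycans such as versican and aggrecan, had 10 CD137 and 10 PDGFRα peaks. Adamts9 (chromosome 6, 92772699 to 92944450) had 5 peaks, all from PDGFRα. Inside the gene these lay at 92786921 to 92788199, 92802711 to 92805394, 92812526 to 92813298 and 92876657 to 92877753, between 67.2 and 157 kb from the start. The peak at 92802711, with 2683 bp, came next in width after that of Mmp14 among the PDGFRα peaks of members. The remaining one lay 44.8 kb beyond the gene end and was nearer to Prickle2. Of the 54 genes with a peak, Adamts9 was the only one whose interval for the CD137 share (0 to 52.2%) left out the 64.4% of the whole lists, without allowance for the number of genes.

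Adamts1 and Adamts5, neighbours on chromosome 16 with 55 kb between them, had 2 and 1 CD137 peaks and no PDGFRα peak. The peak of Adamts1 at 85790632 to 85796003 had a width of 5371 bp and was rank 16 of the whole CD137 list. It covered the end of the gene and not its start. The peak of Adamts5 lay in an intron at 85878674 to 85879990. Adamts8 and Adamts15, neighbours on chromosome 9, had 3 CD137 and 2 PDGFRα peaks and 2 and 1 peaks, of which 1, a PDGFRα peak in Adamts15, lay inside a gene. The peaks of Adamts8 from 30996074 onward were nearer to Zbtb44. Adamts20 had 2 and 2. Adamts4 had none.

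The remaining Adamts genes without an established common substrate had 18 CD137 and 8 PDGFRα peaks at all 6 genes (69.2%, 48.2 to 85.7%). Adamts17, linked to fibrillin microfibrils as Adamts10 is, had 6 CD137 peaks and 1 PDGFRα peak. The intragenic CD137 peaks lay at 19, 188, 264 and 270 kb from its start, and the PDGFRα peak at 200 kb. A further 2 CD137 peaks lay upstream in Cers3. Adamts18 had 4 and 1, of which a CD137 peak at 113848250 to 113849322 on chromosome 8 covered the listed start, 0.504 kb into the span. Adamts16 had 3 and 4 in mixed order, with the closest opposite peaks 4.14 kb apart. Adamts6 had 2 and 2, with opposite peaks 2.87 kb apart near the higher-coordinate end of a gene of 210 kb. Adamts19 had 2 and 0, and Adamts10 had 1 and 0, the latter a peak of 2228 bp over the lower-coordinate end of its span at 33523530 to 33525758 on chromosome 17. Adamts13, whose protease cuts von Willebrand factor, had 1 PDGFRα peak, 34.3 kb from the gene and nearer to Slc2a6.

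**Figure D3:**
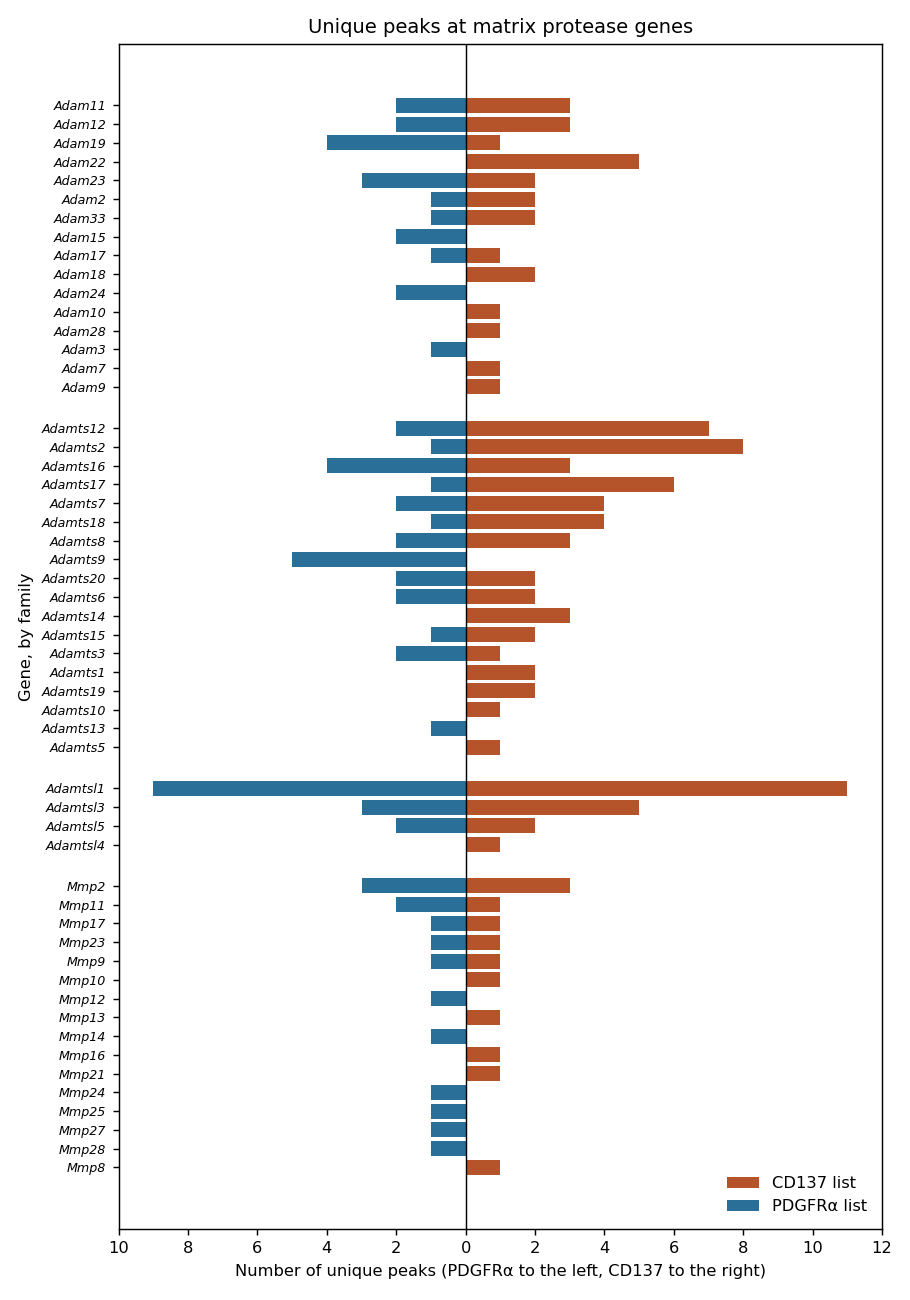
Number of unique peaks at each of the 54 matrix protease genes with a peak, by family, with CD137 peaks to the right (orange) and PDGFRα peaks to the left (blue). Adamtsl1 has the longest bars in both directions (11 and 9), Adamts2 and Adamts12 have more CD137 peaks, and Adamts9 has PDGFRα peaks only. CD137 peaks are 64.4% of the whole lists. The intervals for the CD137 share of Adamts2 (51.8 to 99.7%) and Adamts12 (40 to 97.2%) hold this value.

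Adamtsl1, which encodes a secreted ADAMTS-like glycoprotein, had the most peaks of all members, 11 from CD137 and 9 from PDGFRα, over a span of 915 kb. That is 1 peak per 50.7 kb of gene and window, against 1 per 33.9 kb at Adamts2, and Adamtsl1 is also the longest member. The count rests on the RefSeq span. In the deposited lists 6 CD137 and 6 PDGFRα peaks carried 1 Ensembl ID, and 1 PDGFRα peak carried another. The peaks from 85694945 to 86019815 were classed intergenic there, although they lay inside the RefSeq span. Peaks of the lists alternated along this span and its window, with 11 changes of list in the order of 20 peaks. At the higher-coordinate end the PDGFRα peaks were dense. From 86310458 to 86359811 on chromosome 4 lay 5 PDGFRα peaks and, among them, 1 CD137 peak at 86317619 to 86318607. The PDGFRα peak of 2282 bp in an exon at 86335774 to 86338056, was rank 4 by width among PDGFRα peaks at members. With lists of equal length, for which only the widest CD137 peaks were kept, the CD137 number was below the PDGFRα number (a difference of -4), in a setting that removes CD137 peaks alone.

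Adamtsl3 had 5 CD137 and 3 PDGFRα peaks, of which a CD137 peak at 82335440 to 82336694 on chromosome 7 covered the listed start, 0.295 kb into the span. Opposite peaks lay 1.45 kb apart between 82502256 and 82504638, 167 and 169 kb from the start. Adamtsl5 had 2 and 2, all but 1 CD137 peak nearer to Apc2 or Mex3d. Adamtsl4, whose product binds fibrillin-1, had 1 CD137 peak, and at 6109 bp (95663422 to 95669531 on chromosome 3) it was the widest of all member peaks and rank 8 of the CD137 list. It lay 9.72 kb beyond the end of Adamtsl4, at Mcl1 by position, which shows the limit of a count by distance. Adamtsl2 had none assigned.

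**Figure D4:**
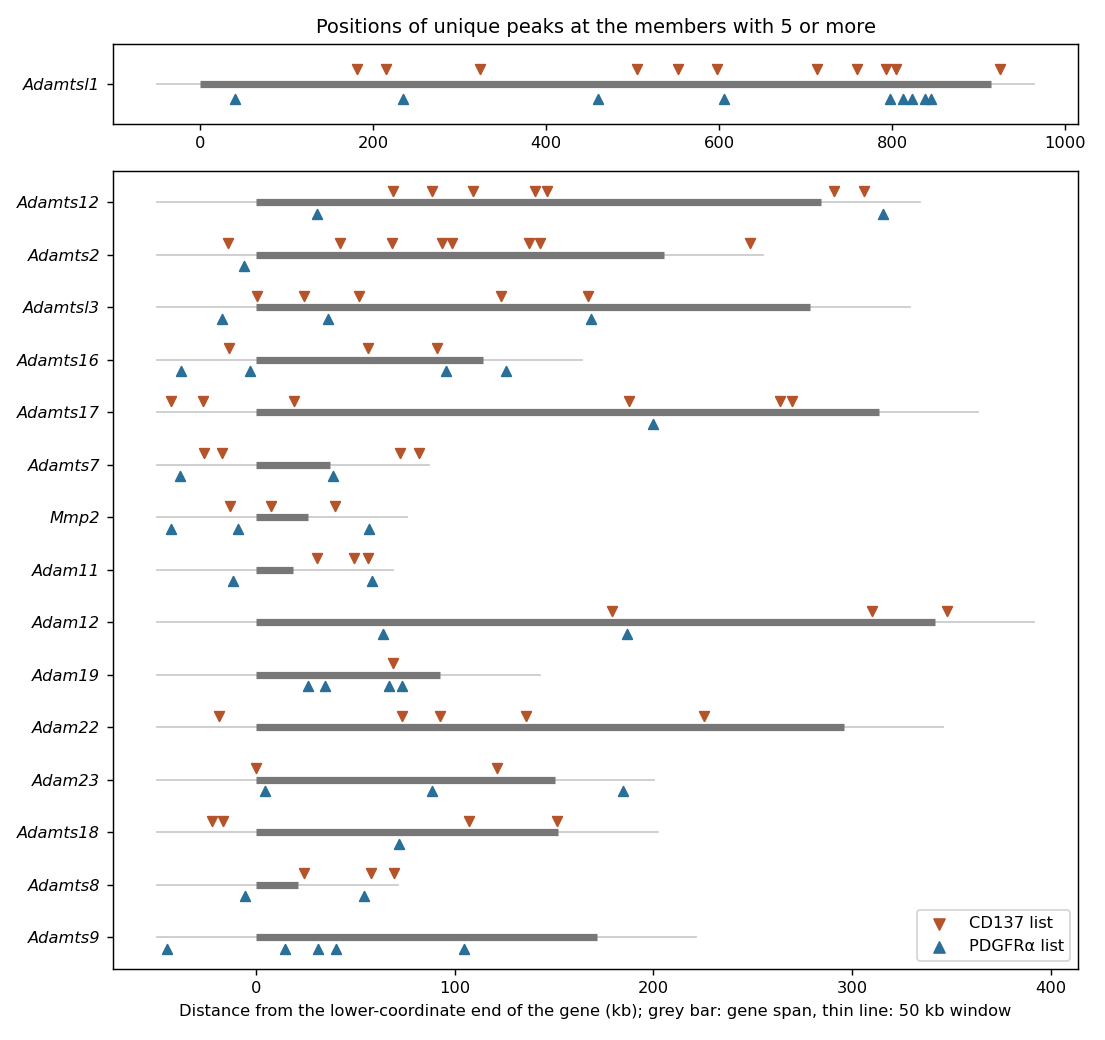
Positions of the unique peaks at the 16 genes with 5 or more, as distance in kb from the lower-coordinate end of the gene. The grey bar is the gene, the thin line its 50 kb window, and triangles mark CD137 peaks (orange, above) and PDGFRα peaks (blue, below); Adam22 has CD137 and Adamts9 PDGFRα peaks only, and the other 14 hold both.

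Among the Adam genes Adam11, Adam12, Adam19, Adam22 and Adam23 had 5 peaks each. Adam22, Adam23 and Adam11 encode inactive ADAMs that act as receptors of LGI proteins in neurons. Adam22 (chromosome 5, 8072347 to 8368312) had 5 peaks, all from CD137, with 4 of them inside the gene at 70.2, 160, 203 and 222 kb from its start. The last, in an exon, had a width of 2875 bp. Adam23 had 2 CD137 and 3 PDGFRα peaks, and its gene start lay in the CD137 peak at 63445300 to 63446581 on chromosome 1, and a PDGFRα peak began 3.63 kb after that start. Adam11 had 3 and 2, none inside, and 4 of these 5 were nearer to Gjc1.

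Adam19 (chromosome 11, 46054502 to 46147347), which encodes a sheddase of neuregulin, had 1 CD137 and 4 PDGFRα peaks, all inside the gene. The CD137 peak at 46122690 to 46124094 lay between 2 PDGFRα peaks, 1.77 kb from the nearer. Adam12, a sheddase gene active in mesenchymal precursors of fat and muscle, had 3 and 2, of which 4 lay in introns. Adam10 had 1 CD137 peak in an intron, 9.45 kb from its start. Adam17, whose protease releases TNF, had 1 peak of each list, 47.1 kb (CD137) and 10.7 kb (PDGFRα) from the start of a gene of 50.1 kb. Adam15 had 2 PDGFRα peaks, both nearer to Efna3. Adam33 had 2 CD137 peaks and 1 PDGFRα peak, all nearer to Siglec1, and Adam9 and Adam28 had 1 CD137 peak each. The peak of Adam9 was nearer to Plekha2.

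Of 22 Adam genes known mainly from testis, sperm or egg, 5 had a peak assigned, with 5 CD137 and 4 PDGFRα peaks in all. With every peak of each window 6 of 22 (27.3%) had a peak, beside 65.1% of all genes and 55.4% of those under 20 kb. The median span of the set was 8.35 kb, and no test was made of this difference. These were Adam2 (2 and 1), Adam18 (2 and 0), Adam24 (0 and 2), Adam3 (0 and 1) and Adam7 (1 and 0). The other 17 had none assigned, namely Adam1a, Adam1b, Adam4, Adam5, Adam6a, Adam6b, Adam20, Adam21, Adam25, Adam26a, Adam26b, Adam29, Adam30, Adam32, Adam34, Adam34l and Adam39. Many of them are short and stand in groups. The 4 genes from Adam26b to Adam34 on chromosome 8 had no peak over 184 kb. Outside this set Adam8 had no peak.

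Most Mmp peaks lay outside the genes, and for many another gene was nearer. The gelatinase gene Mmp2 (chromosome 8, 92827290 to 92853421) had 3 CD137 and 3 PDGFRα peaks in mixed order, with 99.8 kb between the outermost centres. Its only peak inside the gene was a CD137 peak in an intron at 92834238 to 92835967. On the lower-coordinate side lay a CD137 peak at 12.8 kb and PDGFRα peaks at 9.18 kb and 43 kb, and the remaining 2 lay in introns nearer to Lpcat2. Mmp9, the other gelatinase gene, had a CD137 peak inside at 164952544 to 164954061 on chromosome 2, and a PDGFRα peak 1.49 kb from its span at 164938383 to 164939291.

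Mmp14 (chromosome 14, 54431598 to 54442456), whose membrane-bound protease cuts collagen and activates the product of Mmp2, had 1 peak. It was a PDGFRα peak of 3218 bp at 54432763 to 54435981, the widest PDGFRα peak of all members, and it began 1.17 kb after the gene start. Mmp16, another membrane-type gene, had 1 CD137 peak in an intron. Mmp17 had 1 and 1, Mmp24 and Mmp25 had 1 PDGFRα peak each, and Mmp15 had none. The PDGFRα peaks of Mmp17, Mmp24 and Mmp25 were nearer to Sfswap, Edem2 and Bicdl2. Mmp11, a stromelysin gene of stromal cells, had 1 CD137 and 2 PDGFRα peaks, all nearer to other genes. Mmp23 had 1 and 1, Mmp21 had 1 and 0 and Mmp28 had 0 and 1, all nearer to other genes. Mmp19 had none.

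A group of 10 Mmp genes stands in a row on chromosome 9 from 7272514 to 7699585 (427 kb). They include the collagenase genes Mmp1a, Mmp1b, Mmp8 and Mmp13, the stromelysin genes Mmp3 and Mmp10, and Mmp12, the elastase of macrophages. Between them they had 3 CD137 and 2 PDGFRα peaks, all of the class intergenic and none inside 1 of these genes. CD137 peaks lay 10.7 kb upstream of Mmp13 (7261089 to 7262487), 16.1 kb downstream of Mmp10 (7525840 to 7526928) and 13 kb upstream of Mmp8 (7544759 to 7546052). PDGFRα peaks lay 8.30 kb upstream of Mmp12 (7335620 to 7336577) and 22.1 kb downstream of Mmp27 (7603151 to 7604763). No peak was assigned to Mmp1a, Mmp1b, Mmp3, Mmp7 or Mmp20.

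A gene start with a RefSeq promoter sequence, from 250 bases before the start to 50 after it, was at hand for 50 of the 81 members, with 55 promoters in all (RefSeq, GRCm38.p6). In 6 of these the start lay in a unique peak. It was a CD137 peak at Adam23, Adamtsl3, Adamts14 and Adamts18 and a PDGFRα peak at Adamts20 and Adam19. The starts of Adamts20 and Adam19 were internal, 27.7 and 73.4 kb into the span. How many of all RefSeq promoters start in a unique peak was not counted, so 6 is not read as many or few. All 6 are shown because these are the member starts that lie in a peak found in 1 list. Each is printed 5′ to 3′ on the strand of the gene. Capitals mark GGGCGG, the core of SP and KLF sites, on either strand, and adjoining or overlapping matches run together.

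Adam23, chr1:63445641-63445940, plus strand, CD137 peak: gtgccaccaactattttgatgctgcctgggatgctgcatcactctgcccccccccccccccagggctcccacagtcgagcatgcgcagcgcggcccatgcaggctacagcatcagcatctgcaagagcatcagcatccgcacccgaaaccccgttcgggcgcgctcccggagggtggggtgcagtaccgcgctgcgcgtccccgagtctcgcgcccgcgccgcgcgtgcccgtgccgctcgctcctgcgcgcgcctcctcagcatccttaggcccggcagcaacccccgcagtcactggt
Adamtsl3, chr7:82335444-82335743, plus strand, CD137 peak: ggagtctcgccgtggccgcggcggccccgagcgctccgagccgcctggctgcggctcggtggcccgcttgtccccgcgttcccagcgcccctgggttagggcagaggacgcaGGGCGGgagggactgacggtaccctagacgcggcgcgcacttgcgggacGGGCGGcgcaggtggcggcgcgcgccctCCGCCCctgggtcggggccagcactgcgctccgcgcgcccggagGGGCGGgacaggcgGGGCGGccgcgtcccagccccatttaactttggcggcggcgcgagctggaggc
Adamts14, chr10:61273370-61273669, minus strand, CD137 peak: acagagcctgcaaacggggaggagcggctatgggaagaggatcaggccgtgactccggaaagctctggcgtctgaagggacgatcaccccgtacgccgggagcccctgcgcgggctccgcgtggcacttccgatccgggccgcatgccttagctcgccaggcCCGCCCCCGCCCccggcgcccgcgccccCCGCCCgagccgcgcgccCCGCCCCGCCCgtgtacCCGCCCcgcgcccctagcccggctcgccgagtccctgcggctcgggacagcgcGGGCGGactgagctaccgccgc
Adamts18, chr8:113848790-113849089, minus strand, CD137 peak: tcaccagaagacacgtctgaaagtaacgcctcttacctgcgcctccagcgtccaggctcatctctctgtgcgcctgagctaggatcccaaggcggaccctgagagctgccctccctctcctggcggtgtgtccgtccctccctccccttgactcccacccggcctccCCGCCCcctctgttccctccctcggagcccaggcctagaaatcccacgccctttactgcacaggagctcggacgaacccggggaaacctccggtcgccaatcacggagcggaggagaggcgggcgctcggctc
Adamts20, chr15:94404301-94404600, minus strand, PDGFRα peak: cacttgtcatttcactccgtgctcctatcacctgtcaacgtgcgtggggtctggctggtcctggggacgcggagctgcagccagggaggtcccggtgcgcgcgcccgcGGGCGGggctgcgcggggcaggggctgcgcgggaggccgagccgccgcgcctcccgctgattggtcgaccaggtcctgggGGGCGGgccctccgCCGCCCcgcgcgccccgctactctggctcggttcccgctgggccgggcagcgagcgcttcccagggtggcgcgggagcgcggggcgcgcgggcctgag
Adam19, chr11:46127654-46127953, plus strand, PDGFRα peak: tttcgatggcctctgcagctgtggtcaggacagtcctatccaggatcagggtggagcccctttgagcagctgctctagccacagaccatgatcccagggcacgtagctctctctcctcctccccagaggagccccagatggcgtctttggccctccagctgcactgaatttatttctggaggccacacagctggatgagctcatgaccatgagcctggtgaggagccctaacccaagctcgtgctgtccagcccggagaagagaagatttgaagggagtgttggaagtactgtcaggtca

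Of these promoters 5 were rich in CpG, with 46 CpGs at Adamtsl3, 44 at Adamts14, 41 at Adamts20, 31 at Adam23 and 22 at Adamts18, beside a median of 7 over 32851 promoters of the RefSeq table. The start of Adam19 was different, with 5 CpGs. It is 1 of 3 listed starts of that gene and lies 73.4 kb into it. By family the median was 23.5 CpGs for Adamts, 26.5 for Adamtsl, 3 for Adam and 3 for Mmp promoters. Member starts in no unique peak had from 0 CpGs (Adam21) to 44 (Mmp24), with 41 at Adamts2 and at Adamts3. CpG richness is therefore not read as a trait of starts that lie in a peak. GGGCGG occurred 7 times at Adamts14, 5 times at Adamtsl3, 3 times at Adamts20, 1 time at Adamts18 and not at Adam23 or Adam19. It was in 35.7% of all promoters and in 24 of the 55 member promoters (43.6%). Among these were 8 of 10 Adamts and 4 of 4 Adamtsl promoters. The peak at Adamts20 covered 65 of the 300 bases, and the other peaks covered all of them.

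The promoter windows of the Mmp genes of the chromosome 9 row held 0 to 7 CpGs. Low numbers were not particular to this row. The median was 3 for all Adam and for all Mmp promoters, and 7 over the promoters of the RefSeq table. The starts of the row lay in no unique peak, which was also the case for most member starts. TGACTCA or its reverse complement TGAGTCA, the letters of an AP-1 site, was in 10 of 55 member promoters (18.2%) and in 5.20% of all promoters. Of the 10, 7 were Mmp promoters and all 7 belonged to this row (Mmp1a, Mmp1b, Mmp3, Mmp7, Mmp10, Mmp12 and Mmp13), while Adam1b, Adam19 and Adam29 held the other 3. AP-1 sites close to the start are textbook elements of collagenase and stromelysin genes. TATAAA, the core of a TATA box, was in 16 of the 55 (29.1%, beside 13.6% of all). The promoters of Mmp13, Mmp10 and Mmp12 are printed, with both motifs in capitals, as the genes of the 7 to which a unique peak was assigned. Mmp1a and Mmp1b each had 1 peak in their own windows that lay nearer to another member.

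Mmp13, chr9:7272264-7272563, plus strand: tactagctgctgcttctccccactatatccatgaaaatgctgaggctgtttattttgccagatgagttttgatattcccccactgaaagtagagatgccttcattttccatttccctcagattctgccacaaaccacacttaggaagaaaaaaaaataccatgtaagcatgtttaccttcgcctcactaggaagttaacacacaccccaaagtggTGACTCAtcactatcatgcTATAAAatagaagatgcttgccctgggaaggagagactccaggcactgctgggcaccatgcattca
Mmp10, chr9:7502092-7502391, plus strand: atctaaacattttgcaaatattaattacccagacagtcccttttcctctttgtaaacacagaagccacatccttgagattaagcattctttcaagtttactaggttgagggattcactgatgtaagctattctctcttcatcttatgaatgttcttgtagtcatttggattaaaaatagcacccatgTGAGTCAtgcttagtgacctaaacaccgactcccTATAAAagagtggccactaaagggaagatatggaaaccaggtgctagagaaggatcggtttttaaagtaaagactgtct
Mmp12, chr9:7347124-7347423, plus strand: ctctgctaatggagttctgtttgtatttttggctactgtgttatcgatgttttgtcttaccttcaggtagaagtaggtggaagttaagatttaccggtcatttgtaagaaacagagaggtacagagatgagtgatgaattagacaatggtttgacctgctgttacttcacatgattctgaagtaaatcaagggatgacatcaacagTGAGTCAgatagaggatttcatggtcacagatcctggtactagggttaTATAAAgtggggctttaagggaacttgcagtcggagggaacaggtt

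The AP-1 letters began 35 bases before the start at Mmp13, 63 at Mmp10 and 44 at Mmp12, and TATAAA began 16 and 29 bases before it at Mmp13 and Mmp10. At Mmp12, for which the window is that of 1 of 2 listed starts, TATAAA lay just after the start. The peaks of these genes lay kilobases away from these windows. GGAATG, the core of a TEAD site, searched on both strands, was in 3 of the 55 member promoters (5.45%) and in 14.7% of all. The palindrome of the glucocorticoid receptor (AGAACA followed after 3 bases by its reverse complement) was in none of the 55 and in 3 of 32851. TTGCNNCAA, a C/EBP site, was in none of the 55 and in 2.08% of all. The EBF palindrome (TCCC followed after 2 bases by its reverse complement) was in 1 of the 55, at Mmp14, and in 0.904% of all. Each gives only the letters of these windows, and some of the 55 promoters belong to the same gene.

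Intronic peaks made up 43% of CD137 peaks at matrix protease genes (33.5 to 52.9%, beside 31.7% of the whole list) and 38.4% of PDGFRα peaks (27.2 to 50.5%, beside 33.6%). The PDGFRα interval holds the value of its list. Intergenic peaks were 28% beside 45.3% and 26% beside 38.7%. Taking peaks in or near genes raises the intronic and lowers the intergenic share by construction, so neither is read as a difference. Between the lists, the class up5k took 11 of 107 CD137 peaks (10.3%) and 13 of 73 PDGFRα peaks (17.8%), a difference of 7.53 points (Newcombe -2.58 to 18.8) whose interval includes 0. Inside the gene lay 57 CD137 peaks (53.3%) and 36 PDGFRα peaks (49.3%). Of the 42 outside peaks whose gene has a listed strand, 15 were upstream (7 CD137 and 8 PDGFRα) and 27 downstream (16 and 11). Another gene was nearer than the member for 29 CD137 and 22 PDGFRα peaks.

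The deposited classes up5k and down5k mostly followed the coordinate and not the strand. Over both whole lists, peaks over the start of 1 gene were classed up5k in 316 of 413 cases (76.5%) where the gene is on the plus strand, and in 92 of 393 (23.4%) where it is on the minus strand. On the minus strand 234 (59.5%) were classed down5k. The members show the same. The starts of Adam23 and Adamtsl3, on the plus strand, lay in up5k peaks, those of Adamts14 and Adamts18, on the minus strand, in down5k peaks, and the up5k peak of Adamts1 covers the end of a minus-strand gene. The class up5k is therefore not read here as a promoter.

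Peak widths were alike in the lists, with a median of 1299 bp (753 to 6109 bp) for CD137 and 1288 bp (725 to 3218 bp) for PDGFRα at the members. The medians of the whole lists were 1221 and 1237 bp. At 11 of the 26 genes with peaks of both lists, opposite peaks had centres within 5 kb of each other. The same count over all genes was not made, so this is not read as a trait of the members. The closest opposite peaks were at Adamtsl3 (1.45 kb), Adam33 (1.57 kb), Adam11 (1.74 kb) and Adam19 (1.77 kb). Of the 38 members with 2 or more peaks in their own window, 30 (78.9%) had both lists, beside 64.2% of 8445 such genes in all. Members with several peaks are often long, so the values are a description and do not set the members apart.

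A further 45 genes of matrix turnover, counted with all peaks of their own windows, had 76 CD137 and 43 PDGFRα peaks (63.9%, 54.6 to 72.5%). Counted the same way, the share at all protein-coding genes was 59.4%. Peaks lay at 41 of the 45 (91.1%), beside 65.1% of all protein-coding genes and 72.0% of those of 20 to 100 kb. The median span of the 45 was 35.9 kb. Of the inhibitors, Timp1 and Timp2 had 2 CD137 peaks each and no PDGFRα peak, Timp3 had 4 and 1, Timp4 and Reck had 1 and 2, and A2m had 0 and 1. These proteins block MMPs, and the product of Timp3 blocks ADAMs and ADAMTS proteases too. The other proteases had 28 and 13 peaks. Pappa2, a protease of IGF-binding proteins, had 7 and 0, its relative Pappa 3 and 1, the serine protease gene Htra3 3 and 2, and Bmp1, the procollagen C-proteinase gene, 1 and 4. Regulators had 12 and 12, with 6 and 3 at Pcsk5, a proprotein convertase gene. Substrates had 26 and 12, among them the thrombospondin genes Thbs1 (4 and 0) and Thbs2 (3 and 1), the fibrillin-1 gene Fbn1 (4 and 4) and Vwf (2 and 2).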

How the data were processed

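ATAC-seq peaks of 1 CD137+ and 1 PDGFRα+ library were analysed. The authors deposited 1 list of unique peaks per library, which per the file headers holds chromosome, start, end, an Ensembl ID and a place class, and no signal, p-value or other score. The submitters' processing notes list CASAVA 1.8 and mm10 and assign them no step. Not given in the sources used here are the aligner, the peak caller, its threshold, what made a peak unique, and whether starts count from 0 or 1. These settings and the unknown depth bear on every count.

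Spans, promoters and strands came from RefSeq tables of GRCm38.p6 (mm10), leaving out mitochondrial genes. Peaks were assigned by centre within 50 kb to the nearest member. In a check on simulated data, 1615 of 1620 centres inside a member were given to it, and the others lay in overlapping genes. The members and gene lists were chosen with earlier results of these data known.

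The text names members with 4 or more peaks, with an up5k peak within 5 kb, with 1 of the 5 widest peaks of each list, and 9 well-known genes; others were named to account for every member. Alternatives covered windows, widths, list length, merging and assignment. Intervals came from scipy 1.17.1 and figures from matplotlib 3.10.9, run in Python 3.11.15 with pandas 2.3.3 and numpy 2.4.6.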

Additional observations from a re-analysis of the deposited data

How the results depend on the processing

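No paired analysis was possible because each population has a single library. Leaving a library out would remove its group, so this was not run, and the depth that limits each list cannot be read from it. Of 122 alternative values for shares and counts, 101 stayed within the interval of the main share or within 1.5 times the main count. This number says little about stability. Merging near peaks of the same list and counting any overlap with the window changed none of these values. The family intervals were also wide, as with 39.2 to 74.5% for Adamtsl and 26.6 to 66.6% for Mmp genes. The CD137 share at matrix protease genes was 48.6% (40.1 to 57.1%) with lists of equal length, for which the widest CD137 peaks were kept and the share over both whole lists is 50% by construction. The CD137 peaks at the members numbered 57 inside the span, 62 within 5 kb, and 69 among the wider 50% of peaks, as also with lists of equal length. The PDGFRα peaks numbered 36, 39 and 44 in the first 3 of these settings. Genes with PDGFRα peaks only numbered 6 inside the span, 5 within 5 kb and 7 where the member had to be the nearest gene. Genes with both lists numbered 12 inside the span and 15 within 5 kb. The CD137 share at Mmp genes was 75% inside the span (4 peaks) and 66.7% within 5 kb (6 peaks). Intergenic shares inside the span and within 5 kb were 7.02% and 6.45% of CD137 peaks and 5.56% and 5.13% of PDGFRα peaks, as the smaller windows leave out the ground between genes. The up5k share of PDGFRα peaks was 8.33% inside the span and 9.80% where the member had to be the nearest gene.

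At 8 named genes the sign of the difference between the lists changed. The CD137 number minus the PDGFRα number was -1 at Adam11 with lists of equal length and with the member as nearest gene. It was -1 at Adam12 within 100 kb, at Adam2 inside the span, and at Adamts15 inside the span and within 100 kb. For Adamts16 it was 1 inside the span. At Adamts7 it was -1 within 5 kb, in the wider 50% and with lists of equal length. With lists of equal length it was -4 at Adamtsl1 and -1 at Adamtsl3. The 100 kb window adds peaks and the other settings remove some. Lists of equal length remove CD137 peaks only, which lowers these differences by construction, and for the rest the cause was not tested.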
